A study of Mus musculus with 12 samples.

Results

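The claudins are the membrane proteins that build the strands of tight junctions, the belt that seals the space between neighbouring epithelial cells and sets which ions pass through it. Each epithelium carries its own mixture of barrier-forming and pore-forming claudins. The oviduct is lined by secretory and ciliated epithelial cells, and its fluid is made across that sheet. Estrogen receptor alpha (ESR1) is one of the receptors through which estradiol acts on this tissue.

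The claudins described here are those that the study's two-way model (genotype, PMSG and their interaction) placed, under a single gene symbol, in its list of changed genes. They are Cldn3, Cldn4, Cldn9, Cldn11, Cldn22 and Cldn23, which makes 6 of the 24 claudins with a probe set on the array. The same 12 arrays chose them, so their values are given as a description. Counts of how many the fit over all probe sets called are printed beside the share called over all probe sets, and nothing about the claudins is read from them.

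Whole oviducts of immature female C57BL/6 mice were compared in 4 groups of 3 arrays, and each array held RNA pooled from 3 to 4 mice, different mice for each replicate. WT and ESR1KO oviducts were taken at 23 days of age, and PMSG-treated WT and PMSG-treated ESR1KO oviducts 48 h after 5 IU PMSG (pregnant mare serum gonadotropin, which drives ovarian follicles to grow and make estradiol) given at 23 days. PMSG treatment and the added 48 h of age cannot be told apart. ESR1KO mice were ESR1-/- with or without ZP3Cre, a global deletion made through Cre in the oocyte, and WT mice were their ESR1flox/- siblings with or without ZP3Cre, so the control animals also lacked 1 copy of Esr1. Values are log2 signals, on which a difference of 1 is 2-fold. A signal under 4 is called near background here, a range that held 41.5% to 42.3% of the signals on each array. In whole-oviduct RNA, fewer cells of a type and less RNA per cell cannot be told apart.

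Esr1 itself was lower in both ESR1KO groups at 2 of its 3 probe sets. Its brightest probe set (1460591_at) read 12.97 ± 0.07 (SD, n = 3) in WT, 11.20 ± 0.87 in ESR1KO, 12.55 ± 0.31 in PMSG-treated WT and 10.43 ± 0.28 in PMSG-treated ESR1KO (limma adjusted p = 0.0269 without and 0.00387 with PMSG). A weaker probe set (1421244_at) was also called lower, by 3.22 and 2.91 on the log2 scale. The third (1435663_at) differed by -1.87 without and -1.54 with PMSG and was not called (adjusted p = 0.116 in both), and its PMSG-treated groups overlapped. At the brightest probe set the signal that remained was far above background, and ESR1KO replicate 2 read 12.13 against 10.42 and 11.05 in the other ESR1KO arrays. At 1421244_at the signals were 3.72, 6.13 and 3.67 in ESR1KO and 3.01, 3.75 and 2.82 in PMSG-treated ESR1KO. These were near background except in ESR1KO replicate 2, which was the highest ESR1KO array at each Esr1 probe set. Whether these probes lie within the deleted part was not checked here.

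PMSG-treated WT replicate 3 stood apart. The summed signal of 7 ovary markers (Amh, Inha, Fshr, Foxl2, Zp3, Star and Cyp17a1) was 15.04 on that array and between 9.13 and 10.59 on every other one. Zp3, the egg coat gene of the oocyte, read 10.79 there against 1.84 to 2.05 elsewhere, and Cyp17a1, an enzyme of steroid-making cells, read 12.16 against 1.66 to 1.86. The same array had the lowest sum of the 6 epithelium markers, 14.97 against 15.57 to 16.18. The differences of the 6 claudins that use it are therefore given with and without it.

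Other marker lists moved with genotype. The 4 mesothelium markers summed to 13.02 to 13.39 in ESR1KO and 13.15 to 13.25 in PMSG-treated ESR1KO, above the 12.33 to 12.40 of WT and the 11.65 to 12.44 of PMSG-treated WT. Upk3b and Lrrn4 passed the test in both genotype comparisons. The 5 endothelium markers, all but Tie1 above background, were lower in untreated ESR1KO (7.90 to 8.57 against 9.47 to 9.78 in WT), and Pecam1 passed the test there. That list includes Cldn5. The 5 leukocyte markers with a probe set summed to 11.59 to 12.26 in PMSG-treated ESR1KO against 9.78 to 11.07 in PMSG-treated WT, and to 11.14 to 11.36 against 10.50 to 11.05 without PMSG, with Lyz2 called higher with PMSG (1.5, adjusted p = 0.00803). Of the stroma and smooth muscle markers, Pdgfra was higher and Lum lower in both genotype comparisons, and Actg2 was lower without PMSG. Alas2, of the red cell list, was lower with PMSG, but the red cell markers with a probe set (Hba-a1 and Alas2) had mean signals under 4. So had Cd3e and Itgam of the leukocyte list.

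Of the 6 epithelium and 8 ciliated markers, 0 were called in any of the 4 pairwise comparisons. The ciliated markers summed to 15.18 to 15.31 in WT and 14.70 to 15.19 in ESR1KO. They summed to 14.50 to 15.10 in PMSG-treated WT, wholly below WT, and to 14.53 to 14.90 in PMSG-treated ESR1KO. The 4 secretory markers were not called either, but their median difference was 0.86 with PMSG. Of these, Sox17 was higher by 0.97 (adjusted p = 0.0419) and Wt1 by 0.77 (adjusted p = 0.0167), both under 2-fold, Pax8 differed by 0.96 (adjusted p = 0.167), and the bright Ovgp1 by 0.02. Wt1 is on the mesothelium list as well, so the secretory and mesothelium lists are not separate. The part of these lists in the claudin values below was not tested.

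**Figure D1:**
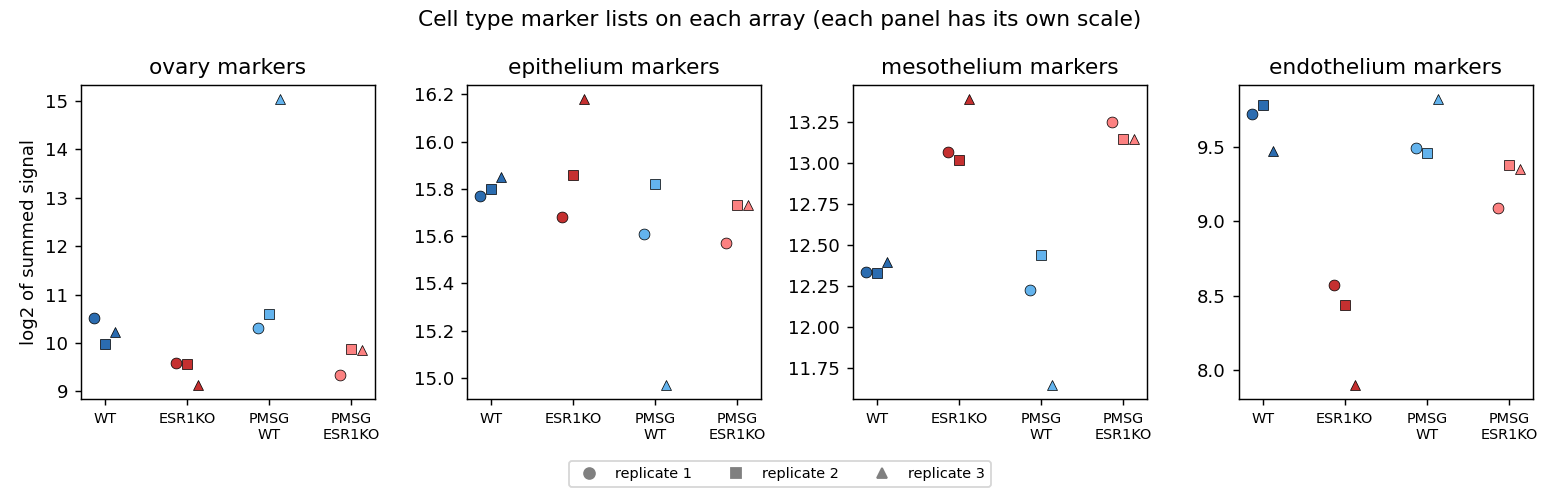
Log2 of the summed signal of 4 marker lists (y axis, each panel with its own scale) on the 12 arrays, grouped by genotype and PMSG (x axis), 1 point per array. PMSG-treated WT replicate 3 stands at 15.04 for the ovary markers, and both ESR1KO groups lie above both WT groups for the mesothelium markers.

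Cldn3 and Cldn4 are barrier-forming claudins of simple epithelia, and both are receptors of the Clostridium perfringens enterotoxin. Their genes are neighbours in the mouse genome (RefSeq, GRCm38.p6), Cldn4 at chr5:134945123-134946934 and Cldn3 at chr5:134986214-134987476, with 39.3 kb and 0 protein-coding genes between them. Cldn22 (chr8:47824482-47825475) is shown beside them as a claudin that was lower in ESR1KO. The 250 bases before each annotated gene start are printed because ESR1 can act on genes by binding DNA directly or through partners such as AP-1 and SP1. Capitals mark TGACC (an estrogen response half-site), TGANTCA (the AP-1 motif) and GGGCGG (the SP1 motif), on either strand.
Cldn4, chr5:134946935-134947184, minus strand: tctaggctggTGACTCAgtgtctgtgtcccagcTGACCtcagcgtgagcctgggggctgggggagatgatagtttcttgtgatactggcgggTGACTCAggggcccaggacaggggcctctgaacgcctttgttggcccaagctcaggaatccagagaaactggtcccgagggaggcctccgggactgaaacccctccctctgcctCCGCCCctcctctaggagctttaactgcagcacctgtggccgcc
Cldn3, chr5:134985964-134986213, plus strand: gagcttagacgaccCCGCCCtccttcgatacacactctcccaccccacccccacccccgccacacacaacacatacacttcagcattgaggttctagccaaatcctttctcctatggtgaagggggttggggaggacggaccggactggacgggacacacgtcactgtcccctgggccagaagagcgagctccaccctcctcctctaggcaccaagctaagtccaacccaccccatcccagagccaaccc
Cldn22, chr8:47824232-47824481, plus strand: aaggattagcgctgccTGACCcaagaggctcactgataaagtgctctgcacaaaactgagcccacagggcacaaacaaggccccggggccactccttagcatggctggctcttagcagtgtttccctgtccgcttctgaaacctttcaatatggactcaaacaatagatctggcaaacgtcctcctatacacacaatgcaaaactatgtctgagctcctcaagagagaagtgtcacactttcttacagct

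Of the 6 claudins, 4 had such a sequence (Cldn3, Cldn4, Cldn11 and Cldn22), and Cldn9 and Cldn23 are only named. The full estrogen response element GGTCANNNTGACC was in 0 of the 4 windows and in 0.0639% of all 32851 windows. The half-site TGACC, read on both strands, was in 3 of the 4, Cldn4 (from base -217, where -1 is the base before the start), Cldn11 (-153) and Cldn22 (-234), and in 35.2% of all windows. TGANTCA was found in the Cldn4 window alone of the 4, at -240 and at -158, and in 6.75% of all windows. GGGCGG was in 2 of the 4, Cldn3 and Cldn4, and in 32.7% of all windows. The CCAAT box (CCAAT) was in the Cldn11 window only, at -66 and -35 (33.8% of all windows), and TATAAA in none of the 4 (12.4% of all windows). A match describes letters and is not a measured binding site.

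Cldn4 had the widest difference between genotypes. Its log2 signals were 4.59, 5.47 and 5.82 in WT, 6.46, 8.16 and 9.34 in ESR1KO, 4.33, 4.31 and 4.26 in PMSG-treated WT, and 6.90, 8.35 and 9.28 in PMSG-treated ESR1KO. Every ESR1KO array was above every WT array, with and without PMSG. With PMSG the means were 8.17 ± 1.20 (SD, n = 3) and 4.30 ± 0.04, a log2 difference of 3.87 (SE 0.71; 3.85 without PMSG-treated WT replicate 3), or 14.7-fold higher in ESR1KO. Without PMSG they were 7.98 ± 1.45 and 5.29 ± 0.63, a log2 difference of 2.69 (SE 0.71), or 6.46-fold. The PMSG-treated WT arrays lay close to the background limit, so the size of the larger fold depends on how weak signals were corrected. The ESR1KO arrays were far more scattered than the PMSG-treated WT arrays. Replicate 1 was the lowest and replicate 3 the highest in WT and in both ESR1KO groups, and the order was the reverse in PMSG-treated WT.

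Cldn3 was bright on every array and differed between genotypes after PMSG. It read 10.87, 10.76 and 10.71 in WT, 10.84, 10.68 and 11.53 in ESR1KO, 9.89, 10.28 and 9.19 in PMSG-treated WT, and 11.08, 11.08 and 11.39 in PMSG-treated ESR1KO. At this probe set, that of the study's list, the untreated groups overlapped, and the PMSG-treated groups did not. The log2 difference was 1.40 (SE 0.27) with PMSG, 2.64-fold higher in ESR1KO, and 0.24 (SE 0.27, 95% confidence interval -0.36 to 0.84) without. The lowest value came from PMSG-treated WT replicate 3, and without that array the PMSG-treated difference was 1.10. The other 3 Cldn3 probe sets gave 1.17, 1.26 and 1.27 with PMSG and 0.47, 0.42 and 0.52 without (1434651_a_at, 1451701_x_at and 1460569_x_at), differences of the same direction from the same RNA. Without PMSG-treated WT replicate 3 those with PMSG were 0.95, 0.99 and 1.02 and were not called (limma adjusted p = 0.0786, 0.0807 and 0.0539). The probe set of the study's list (1426332_a_at) stayed called there (1.10, adjusted p = 0.0143). Without PMSG every ESR1KO array was above every WT array at 1434651_a_at and 1460569_x_at, as for 10.1% of all probe sets. Neither was called, and the untreated genotypes overlapped at 1426332_a_at and 1451701_x_at.

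Cldn9, a claudin best known from the inner ear, where its loss causes deafness, was near background in WT oviducts and clearly measured in ESR1KO oviducts. The signals were 4.44, 3.77 and 3.79 in WT, 6.75, 5.97 and 7.09 in ESR1KO, 3.21, 3.06 and 2.73 in PMSG-treated WT, and 6.04, 6.61 and 6.60 in PMSG-treated ESR1KO. Neither genotype pair overlapped. The log2 difference was 3.42 (SE 0.32; 10.7-fold) with PMSG and 2.61 (SE 0.32; 6.09-fold) without, and 3.28 with PMSG when PMSG-treated WT replicate 3 was left out. These sizes rest on WT signals around or under the background limit. A second Cldn9 probe set (1450524_at) was at background on all arrays, with group means of 1.51 to 1.57. Cldn9 lies at chr17:23682584-23684026, next to Cldn6, whose group means of 1.94 to 2.00 were also at background.

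Cldn11 forms the tight junctions of myelin and of Sertoli cells in the testis. In the oviduct it read 5.84, 5.01 and 5.44 in WT, 8.48, 7.30 and 6.94 in ESR1KO, 4.80, 4.84 and 5.13 in PMSG-treated WT, and 8.17, 7.80 and 8.40 in PMSG-treated ESR1KO. All ESR1KO arrays exceeded all WT arrays. The means differed by 3.20 (SE 0.37) on the log2 scale with PMSG, 9.17-fold, and by 2.14 (SE 0.37) without, 4.42-fold. Leaving out PMSG-treated WT replicate 3 gave 3.30 with PMSG. Of the myelin and Schwann cell markers, Sox10 was near background on every array (3.29 to 3.82), and Mbp read 8.19 to 8.82 in the ESR1KO groups and 7.02 to 7.91 in the WT groups (difference with PMSG 0.80, adjusted p = 0.0491, under 2-fold). Its part in the Cldn11 values was not tested. The gene is at chr3:31149920-31164326.

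Cldn22 was lower in ESR1KO. Its signals were 9.49, 9.56 and 9.53 in WT, 8.09, 8.43 and 8.52 in ESR1KO, 9.88, 10.10 and 9.49 in PMSG-treated WT, and 7.53, 7.62 and 7.63 in PMSG-treated ESR1KO. Both pairs were fully separated. The log2 difference was -2.23 (SE 0.17), 4.69-fold lower, with PMSG and -1.18 (SE 0.17), 2.27-fold lower, without. Leaving out PMSG-treated WT replicate 3 gave -2.40 with PMSG.

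Cldn23 (chr8:35824709-35826559) was the other claudin that was lower in ESR1KO. It read 8.40, 8.60 and 8.52 in WT, 6.59, 6.74 and 6.75 in ESR1KO, 9.95, 10.14 and 9.04 in PMSG-treated WT, and 6.53, 6.53 and 7.03 in PMSG-treated ESR1KO. The order of the groups was PMSG-treated WT, then WT, then both ESR1KO groups, which overlapped each other. The log2 difference was -3.01 (SE 0.26), 8.06-fold lower, with PMSG and -1.81 (SE 0.26), 3.51-fold lower, without. PMSG-treated WT replicate 3 was the lowest of its group, and without it the PMSG-treated difference was -3.34. Cldn22 and Cldn23 are both on chromosome 8 but lie far apart, with 63 protein-coding genes between them.

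**Figure D2:**
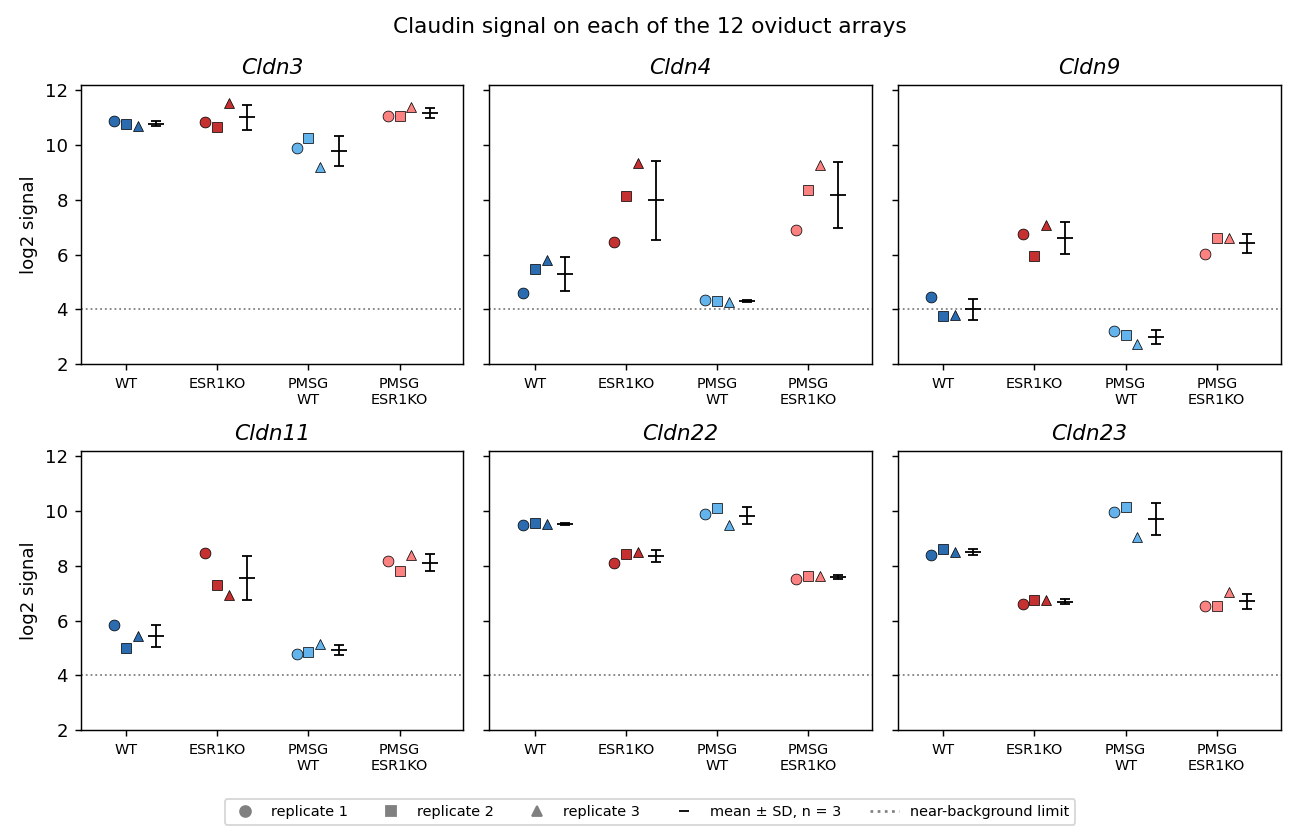
Log2 signal (y axis) of the 6 claudins on each of the 12 arrays by group (x axis), with symbols for replicates 1 to 3, the mean ± SD (n = 3) beside each group and a dotted line at the near-background limit of 4. Cldn4, Cldn9 and Cldn11 sit higher and Cldn22 and Cldn23 lower in both ESR1KO groups. At the Cldn3 probe set drawn here the genotypes overlap without PMSG and not with it.

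The model that chose the claudins held both genotypes, PMSG and their interaction on these arrays, so each count and median below was shaped by that choice. All 6 claudins were called between the PMSG-treated genotypes (limma adjusted p under 0.05, 2-fold or more), 4 higher and 2 lower in ESR1KO. Over all probe sets 4.57% were called in that comparison, 2.84% higher and 1.72% lower, and nothing is read from the count. Cldn3 was not called without PMSG-treated ESR1KO replicate 3, where its difference was 1.30. In ESR1KO versus WT 4 were called, Cldn9 and Cldn11 higher and Cldn22 and Cldn23 lower, against 1.58% of all probe sets (0.799% higher, 0.779% lower). Leaving out WT replicate 2 (1.93) or WT replicate 3 (2.15) ended the call of Cldn11, and leaving out ESR1KO replicate 1 (3.45) added that of Cldn4. The direction was the same in both for the 4 that were called in both, as for 1.2% of all probe sets. The groups did not overlap for 6 claudins with PMSG, 4 above and 2 below, where 19.6% of all probe sets did not (11.5% above, 8.08% below). Without PMSG they did not overlap for 5, 3 above and 2 below, against 20.3% (10.1% above, 10.2% below). The median difference of the 6 was 2.30 with PMSG and 1.19 without, beside 0.01 and -0.01 over all probe sets. These 2 genotype comparisons share no array, but they share the estimate of spread and the choice of the claudins.

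Among WT oviducts the PMSG-treated mean was lower for the 4 claudins that were higher in ESR1KO, and higher for the 2 that were lower in ESR1KO. PMSG-treated WT arrays enter both this comparison and the genotype comparison with PMSG. In WT, the log2 difference of PMSG-treated from untreated oviducts was -0.99 for Cldn3, -0.99 for Cldn4, -1.0 for Cldn9 and -0.50 for Cldn11. It was 0.30 for Cldn22 and 1.20 for Cldn23. PMSG-treated WT arrays lay wholly below WT arrays for Cldn3, Cldn4 and Cldn9 and wholly above them for Cldn23. They overlapped for Cldn11 and Cldn22, and for Cldn3 at its brightest probe set (1460569_x_at). Across all probe sets 13.5% did not overlap in this comparison, 5.22% above and 8.33% below.

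None of the 6 was called in PMSG-treated WT versus WT (limma; 3 had an unadjusted p under 0.05, and the unmoderated model also called 0), where 0.36% of all probe sets were. Without PMSG-treated WT replicate 3 the differences became -0.70 for Cldn3, -0.97 for Cldn4, -0.87 for Cldn9, -0.61 for Cldn11, 0.46 for Cldn22 and 1.54 for Cldn23, and Cldn23 was then called. All 6 kept their direction. In ESR1KO the PMSG differences were 0.17 for Cldn3, 0.19 for Cldn4, -0.19 for Cldn9, 0.55 for Cldn11 and 0.00 for Cldn23, with overlapping groups. Cldn22 was the exception, lower by 0.75 on the log2 scale with every PMSG-treated ESR1KO array below every ESR1KO array. Of the 6, 0 were called there by limma or the unmoderated model (1 had an unadjusted p under 0.05; 0.00666% of all probe sets were called and 6.25% did not overlap, 4.29% above and 1.96% below).

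The difference between the PMSG responses of the genotypes, ESR1KO minus WT, was 1.16 (95% confidence interval 0.31 to 2.00) for Cldn3, -1.05 (-1.58 to -0.51) for Cldn22 and -1.20 (-2.02 to -0.38) for Cldn23. It was 1.18 (-1.02 to 3.39) for Cldn4, 1.05 (-0.10 to 2.21) for Cldn11 and 0.81 (-0.17 to 1.80) for Cldn9. None of the 6 passed the limma test of the interaction (3 had an unadjusted p under 0.05, the unmoderated model called 0, and 0.06% of all probe sets were called). These intervals include PMSG-treated WT replicate 3. Without that array the values were 0.86 for Cldn3, -1.21 for Cldn22 and -1.53 for Cldn23. They were then 1.16 for Cldn4, 1.16 for Cldn11 and 0.68 for Cldn9, and none was called. The genotype difference was larger with PMSG than without for each of the 6, but the interaction values do not establish that it differed.

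**Figure D3:**
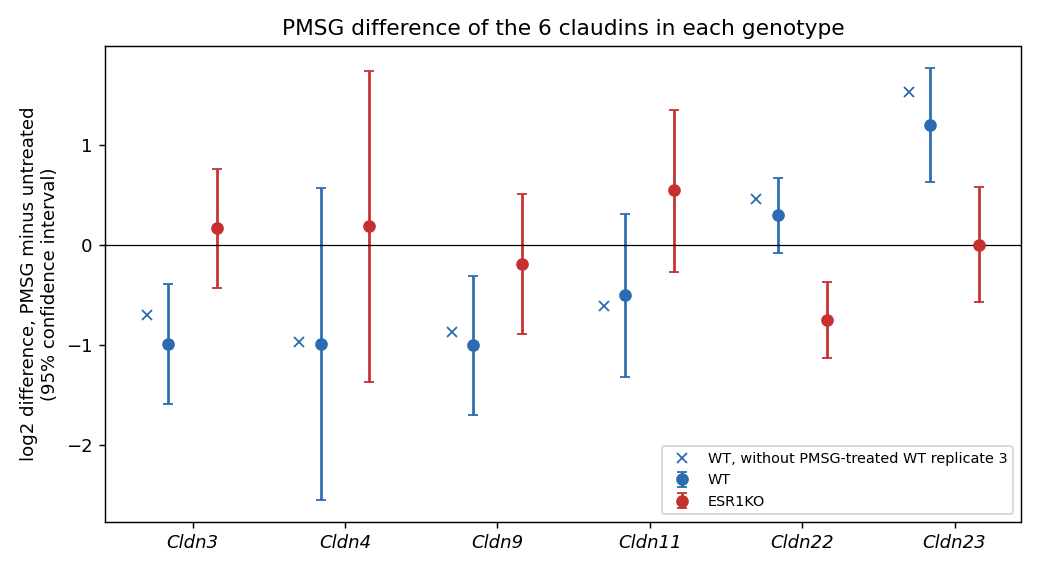
Log2 difference of PMSG-treated from untreated oviducts (y axis, with 95% confidence intervals) for the 6 claudins (x axis) in WT and in ESR1KO, with crosses for the WT value without PMSG-treated WT replicate 3. In WT, Cldn3, Cldn4, Cldn9 and Cldn11 lie below 0 and Cldn23 at 1.20, while in ESR1KO only Cldn22 has an interval that leaves out 0.

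Of the 18 claudins that this rule did not choose, 9 had a mean signal of at least 4, and their median difference was 0.15 with PMSG and -0.16 without. With PMSG 2 of the 18 were called, both higher in ESR1KO, where 4.57% of all probe sets were called, 2.84% higher. Cldn34c1 (1439279_at), which the study's list holds under several symbols, was higher by 1.06 (SE 0.15), and by 1.09 without PMSG-treated WT replicate 3. Its second probe set (1452640_at) differed by 0.58 and was not called (adjusted p = 0.36), with overlapping groups. Cldn1, the barrier claudin of the epidermis, was higher by 1.16 at 1437932_a_at (adjusted p = 0.0378), where PMSG-treated WT read 10.60, 10.69 and 9.31 and PMSG-treated ESR1KO 11.35, 11.36 and 11.36. Without PMSG-treated WT replicate 3 the Cldn1 difference was 0.71 (adjusted p = 0.00525), under the 2-fold limit.

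A second Cldn1 probe set (1450014_at) was not called between genotypes, with differences of 1.04 with PMSG and -1.29 without. Without PMSG every ESR1KO array was below every WT array at this probe set and at 1437932_a_at (-0.29). Neither was called, and 10.2% of all probe sets lay wholly below in that comparison. The second probe set read 9.48, 9.79 and 9.35 in WT and 7.78, 7.20 and 5.71 in PMSG-treated WT. That PMSG difference was -2.64 (adjusted p = 0.0559), and -2.05 (adjusted p = 0.0443) without PMSG-treated WT replicate 3. Cldn5, the claudin of endothelium, read 8.06, 8.06 and 7.65 in WT and 7.18, 6.43 and 5.14 in ESR1KO, a difference of -1.68 (adjusted p = 0.0855). It was called lower when PMSG-treated WT replicate 3, which enters through the shared estimate of spread, was left out (adjusted p = 0.0465). Of the other 4 endothelium markers, Pecam1, Tie1 and Kdr were also below WT on every untreated ESR1KO array, and Cdh5 overlapped. Cldn2, Cldn7, Cldn8, Cldn10, Cldn12 and Cldn15 were not called between genotypes. Of these, Cldn8 differed by 1.06 with PMSG (adjusted p = 0.271) and by -0.16 without. PMSG-treated WT replicate 3 read 6.87 for Cldn8, and without that array the difference with PMSG was 0.37. Cldn7 (group means 11.70 to 12.01) and Cldn10 (11.22 to 11.73) were bright in every group, with genotype differences from -0.33 to 0.00.

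**Figure D4:**
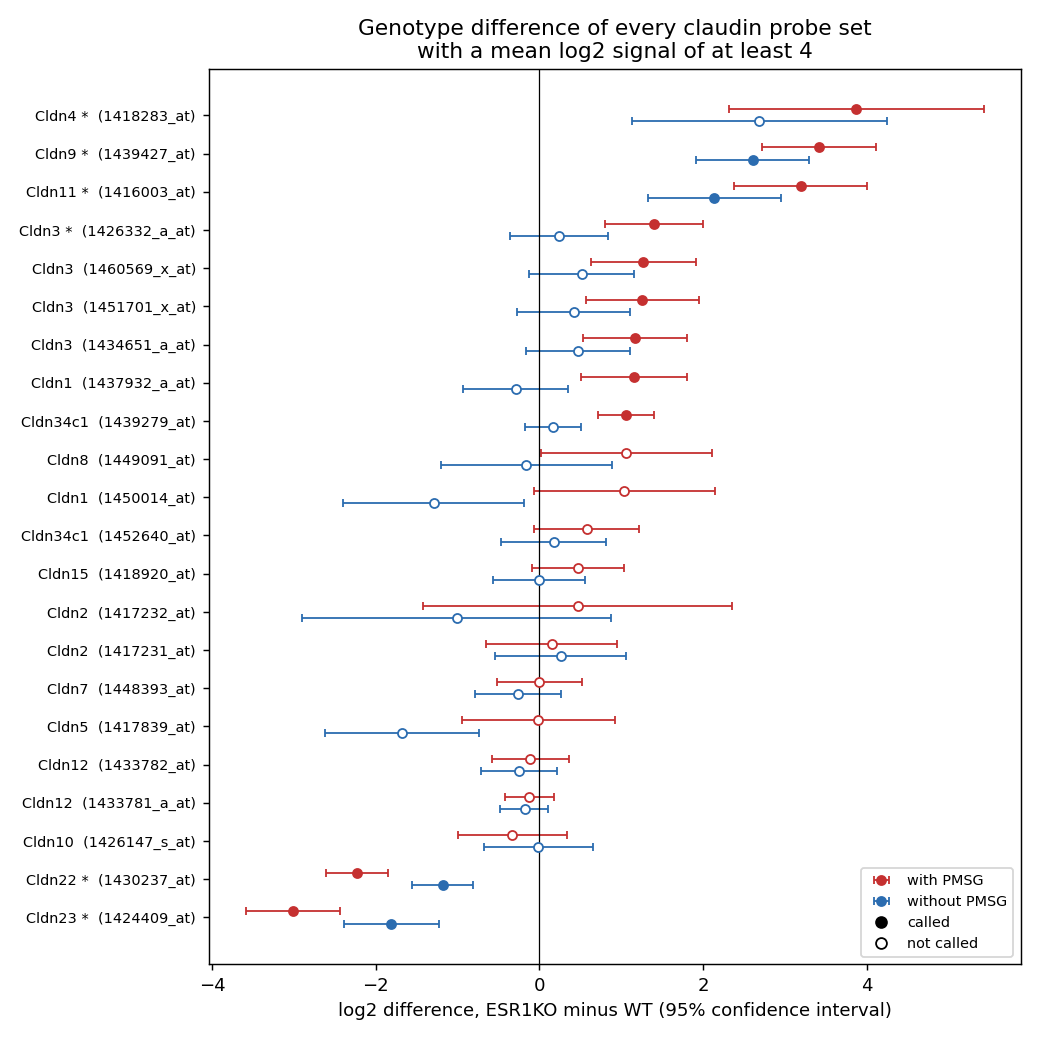
Log2 difference of ESR1KO from WT (x axis, with 95% confidence intervals) with and without PMSG for each claudin probe set whose mean signal was at least 4 (y axis). Stars mark the 6 claudins chosen by the study's model and filled points those called. Cldn4, Cldn9 and Cldn11 lie at the right, Cldn22 and Cldn23 at the left, and Cldn7, Cldn10 and Cldn12 near 0.

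The rest of the tight junction was measured through 41 genes of its strands, plaque and polarity complexes, 39 of them with a probe set. With PMSG 2 were higher in ESR1KO, 0 lower and 37 not called, where 4.57% of all probe sets were called, 2.84% higher. That is 2 of 39, near the share over all probe sets. Their median difference was 0.28 against 0.01 over all probe sets. The same 2 genes, Jam2 and Amot, were the ones called without PMSG (median 0.18), where 0.799% of all probe sets were called higher. Jam2 is a junctional adhesion molecule, and Amot (angiomotin) is a scaffold that binds junction proteins and the coactivator Yap1.

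Jam2 read 11.05, 10.66 and 10.64 in WT, 11.98, 11.74 and 12.05 in ESR1KO, 10.77, 10.42 and 10.49 in PMSG-treated WT, and 12.01, 11.88 and 12.27 in PMSG-treated ESR1KO. The differences were 1.49 (SE 0.16, adjusted p = 0.000283) with PMSG and 1.14 (SE 0.16, adjusted p = 0.00526) without. Amot read 10.99, 10.93 and 10.87 in WT, 12.22, 11.92 and 12.26 in ESR1KO, 10.57, 10.55 and 10.14 in PMSG-treated WT, and 12.13, 12.19 and 12.23 in PMSG-treated ESR1KO. Both genes separated the genotypes on every array. The Amot differences were 1.76 (SE 0.14, adjusted p = 4.62e-05) with PMSG and 1.20 (SE 0.14, adjusted p = 0.00199) without. With PMSG-treated WT replicate 3 left out, the differences with PMSG were 1.46 for Jam2 and 1.62 for Amot.

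A further 4 tight junction genes had an adjusted p under 0.05 with PMSG at less than 2-fold. They were Tjp1, the plaque protein ZO-1, with a difference of 0.61 (adjusted p = 0.00166), the polarity genes Pard6b at 0.84 (adjusted p = 0.0274) and Prkci at 0.54 (adjusted p = 0.0103), and Ildr2 at 0.92 (adjusted p = 0.0149). The 4.57% of all probe sets given above counts 2-fold calls only, so it is not the share for these 4. Nothing is read from their count. Ocln, the strand protein occludin, was not called, with group means of 9.51 in WT, 9.74 in ESR1KO, 8.33 in PMSG-treated WT and 9.48 in PMSG-treated ESR1KO (difference 1.15 with PMSG, adjusted p = 0.11). Neither were the 19 adherens junction and desmosome genes, of which 5 had an unadjusted p under 0.05 with PMSG (limma), at a median difference of 0.22. Dsp, the desmosome plaque gene, was higher by 0.94 (adjusted p = 0.0347), under 2-fold. Jup differed by -0.97 (adjusted p = 0.0744), and by -1.17, which was called (adjusted p = 0.0368), without PMSG-treated WT replicate 3. On all 12 arrays the unmoderated model called 0 of the 19 as well.

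Gap junction genes, whose products join cells through channels, were called in both directions. Of 9 listed, 7 had a probe set, of which 3 were called with PMSG and 1 without, beside 4.57% and 1.58% of all probe sets. With PMSG, Gja1 was lower in ESR1KO by 2.28 on the log2 scale (adjusted p = 0.000351), Gja4 lower by 1.68 (adjusted p = 0.0136) and Gjb2 higher by 2.04 (adjusted p = 0.0203). Gjb2 was also higher without PMSG (2.13, adjusted p = 0.0394), from WT signals of 3.11 to 3.48 that were near background. Gja1 read 12.66, 12.82 and 12.48 in WT and 13.89, 13.87 and 14.89 in PMSG-treated WT, the single junction gene called in that comparison. Its highest value came from the array with the ovary markers, and without that array the Gja1 differences were 1.23 (adjusted p = 0.00865) for PMSG in WT and -1.95 (adjusted p = 6.58e-05) for genotype with PMSG. Gja4 then differed by -1.29 (adjusted p = 0.018) and Gjb2 by 1.89 (adjusted p = 0.0463) with PMSG, and Gja4 was also called lower without PMSG (-1.14, adjusted p = 0.0323).

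**Figure D5:**
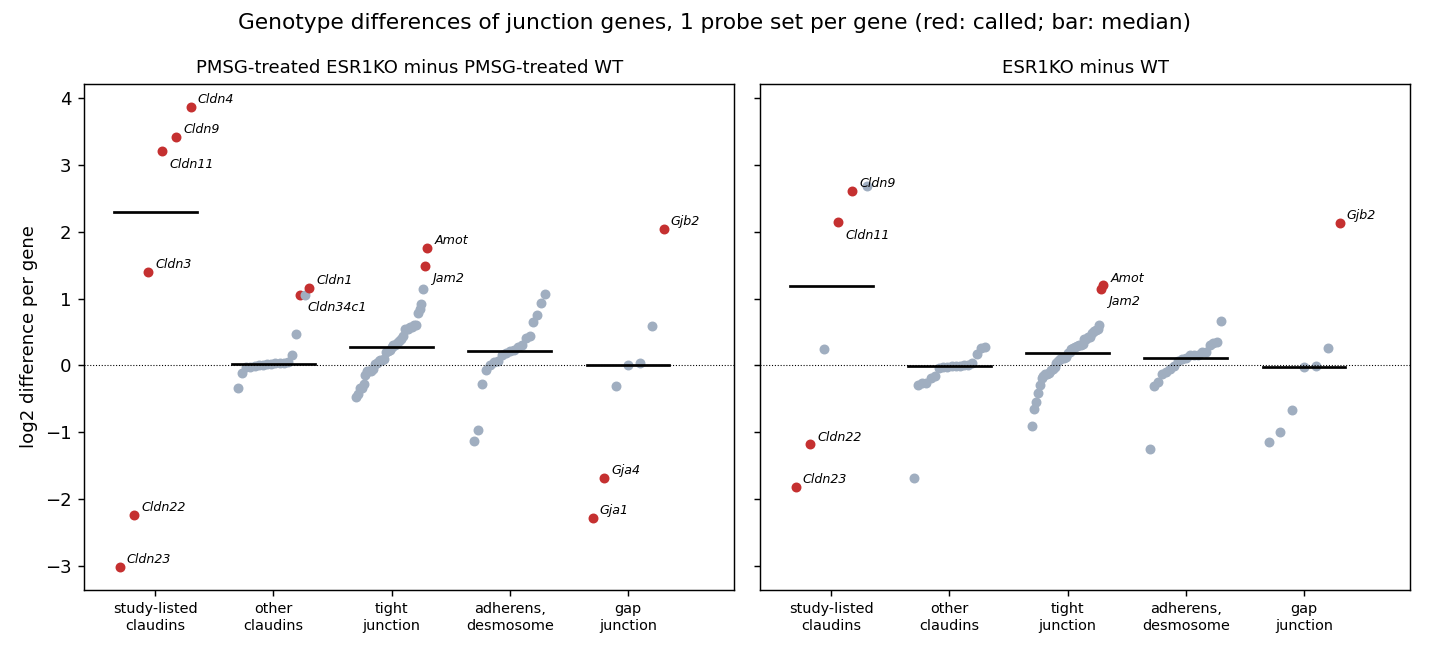
Log2 difference of ESR1KO from WT (y axis) with PMSG (left) and without (right) for each gene of the junction lists (x axis), 1 point per gene, red where called, with a bar at each list's median. With PMSG the tight junction list has its median at 0.28 and Amot at 1.76 as its highest gene. The 6 claudins spread from -3.01 to 3.87, but the study's model chose them on these arrays. Their spread is therefore not compared with the other lists.

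The genes around the claudins were also read. Among the first and second protein-coding neighbours on either side that had a probe set, those called between the PMSG-treated genotypes were Cldn3 and Cldn4 themselves. Abhd11 beside Cldn3 differed by 0.14, Mettl27 beside Cldn4 by 0.26, Skil beside Cldn11 by 0.18 and Wwc2 beside Cldn22 by 0.35. Of the neighbours not called, the widest differences were -1.0 for Tnfrsf12a, 5.1 kb from Cldn9, and -0.86 for Dctd, the second gene after Cldn22. Cldn24, which lies 1.7 kb from Cldn22, has no probe set in the annotation used.

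The genes whose signals followed each claudin most closely over the 12 arrays are named here by Pearson r, as a description of arrays that fall into genotype groups. For Cldn3 they were Rnf43 (0.970), Rab17 (0.968) and Calb1 (0.968), and for Cldn4 Vwa2 (0.974), Add3 (0.970) and Mapk14 (0.969). For Cldn9 they were Bcl11b (0.993), Amot (0.989) and Scara5 (0.987), so the gene second closest to Cldn9 was the tight junction scaffold described above. For Cldn11 they were Ltbp3 (0.989), Nfat5 (0.981) and Rassf4 (0.975). Cldn22 was followed by Spdef (0.989), A2ml1 (0.983) and Enah (0.982), and Cldn23 by Stat5a (0.992), Trpc4 (0.989) and Syn2 (0.987).

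The study's model used a limit on its overall p-value, recomputed here as a description. The member nearest that limit was Cldn3 (0.00682), after Cldn4 (0.00283), and the claudin probe sets nearest on the other side were Cldn1 (0.011 and 0.0129) and the other Cldn3 probe sets (0.0147 to 0.0231). The limit therefore separated probe sets of Cldn3 with similar differences.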

How the data were processed

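The deposited values are log2 signals that the authors made in Partek 6.6 from Affymetrix arrays, with GCRMA background correction, quantile normalization and median polish. GCRMA compresses weak signals. The 3 columns of untreated ESR1KO and the other 9 were deposited in different row orders (correlation between them -0.147 to -0.123). Sorting the rows by untreated ESR1KO replicate 1 restored the 9 columns (0.960 to 0.995). As a check, 1995 of 1997 genes of the part of the study's list used here were then found on all 4 of their fold changes, and symbols agreed for 1816 of 1825. The 64 control rows were left out.

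Group means over 12 arrays and 45037 probe sets were fitted with limma 3.58.1 in R 4.3.3 (eBayes, trend over signal), and p-values were adjusted over all probe sets by Benjamini-Hochberg. Calls needed an adjusted p below 0.05 with a 2-fold difference or more (interaction: adjusted p alone). The test was checked on simulated data with independent noise, for the genotype comparison with PMSG and probe sets of mean signal over 4. It called 30 of 50 log2 changes of 1.5, 41 of 50 of 2, 48 of 50 of 3 and 49 of 50 of 4. Smaller changes were not simulated. Lists were counted with 1 probe set per gene, the brightest. The 3 arrays per group limit the precision. Probe sets were named from 1 symbol (34945), and not from several (932) or none (9160). The members, lists and tests were chosen with earlier results of these data known. Named were the 6 claudins, called claudins and junction genes, marker lists, Esr1 and the 3 genes most correlated with each claudin.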

Additional observations from a re-analysis of the deposited data

How the results depend on the processing

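The 6 claudins kept their direction in both genotype comparisons under every setting tried except Cldn3 in ESR1KO versus WT, which ranged from -0.02 to 0.41 with single arrays left out. With PMSG 5 to 6 claudins were called with single arrays left out and 6 under every other setting. Without PMSG the count was 4, 3 to 5 with single arrays left out, and 3 with the 6 compared arrays alone or the unmoderated two-way model, which both ended the call of Cldn11. In PMSG-treated WT versus WT it was 0 to 1 (1 without PMSG-treated WT replicate 3). Arrays of the same replicate number were not alike throughout (correlations of deviations -0.135 to 0.454), though those of replicate 1 were positive in every comparison (0.178 to 0.454). A fit blocked on replicate number called 5 claudins, Cldn4 included, without PMSG (replicate block).

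Of the other junction genes, 7 were called with PMSG, 5 to 10 with single arrays left out and 13 with no fold minimum. Without PMSG 3 were called, 2 to 5 with single arrays left out, 5 of them without PMSG-treated WT replicate 3 (Jam2, Amot, Gjb2, Gja4 and Cldn5). In PMSG-treated WT versus WT the 1 call (Gja1) became 0 with the replicate block, the unmoderated model or 6 arrays, and 0 to 1 with single arrays left out (0 without any one WT array or PMSG-treated ESR1KO replicate 2).

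Over all probe sets the calls were 2057 with PMSG (1313 with 6 arrays, 1370 to 2249 with single arrays left out), 711 without (314 unmoderated, 260 to 1158), 162 for PMSG in WT (36 with 6 arrays, 59 unmoderated, 57 to 285), 3 for PMSG in ESR1KO (0 to 17) and 27 for the interaction (1 unmoderated, 12 with the replicate block, 6 to 83). Signals near background, as for Cldn9 in WT and Cldn4 in PMSG-treated WT, limit the size of their folds.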
